A study of Homo sapiens with 6 samples.

Results

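The genes described here are 8 human long non-coding RNA (lncRNA) genes of 60671 annotated genes in the expression matrix: MALAT1, NEAT1, KCNQ1OT1, MIR17HG, TUG1, PVT1, NORAD and OIP5-AS1. They were chosen by name from the measured transcript levels of tumor core (TC) and tumor margin (TM), with the core-to-margin differences already known. Their levels and differences are therefore given as a description without a p-value. Of the 8 genes, 6 passed the filter on low values and entered the fit over all genes, whereas KCNQ1OT1 and MIR17HG did not.

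RNA-seq was performed on 6 xenograft samples, 3 from TC and 3 from TM. All 6 came from wild-type MDA-MB-231 cells, a human triple-negative breast cancer line, which had been injected with Matrigel into the mammary fat pads of young adult female NSG mice, a strain without functional lymphocytes and natural killer cells. No other treatment or genetic change separated the groups, and TC and TM differed only in where the tissue was taken from the tumor. The study names separate mice as its replicates but not which TC and TM samples shared a tumor, and every value comes from a single cell line grown beside mouse tissue. The question was how transcription differs between the nutrient-poor core and the margin.

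Most lncRNAs are transcribed by RNA polymerase II like messenger RNAs, and where they stay in the cell bears on what they do. MALAT1 resides in nuclear speckles, bodies rich in splicing factors, and the long form of NEAT1 is the scaffold on which paraspeckles are built. NORAD binds Pumilio proteins in the cytoplasm, and OIP5-AS1 is a largely cytoplasmic RNA that can bind microRNAs and the RNA-binding protein HuR. KCNQ1OT1 is a nuclear antisense transcript of the imprinted KCNQ1 locus, and MIR17HG is the primary transcript from which the miR-17-92 microRNAs are cut out. TUG1 occurs in both nucleus and cytoplasm, and PVT1 lies next to the MYC oncogene.

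The sequences below show why MALAT1 and NEAT1 are placed together. Neither long form ends in an ordinary poly(A) tail: RNase P cuts each precursor, and the end is held in a triple helix of U-rich and A-rich stretches that lie in the genome itself. Both windows are 75 bases long, read 5′ to 3′ on the plus strand of GRCh38 and placed in the longest GENCODE 29 transcript. The capitals mark the A-rich tract. The MALAT1 window is chr11:65506042-65506116 and the NEAT1 window is chr11:65445466-65445540.
MALAT1: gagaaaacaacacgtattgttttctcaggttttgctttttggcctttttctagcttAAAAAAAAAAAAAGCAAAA
NEAT1: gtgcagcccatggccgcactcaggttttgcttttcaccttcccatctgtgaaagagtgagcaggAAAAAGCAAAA
The longest run of letters common to both windows was 16 bases, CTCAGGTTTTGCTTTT, which starts at base 24 of the MALAT1 window and base 19 of the NEAT1 window. The NEAT1 window ends with the last base of the 22743-base transcript NEAT1-202, whereas the 8708-base transcript MALAT1-202 runs on past its window. The letters AAAGCAAAA, searched on the transcript strand, occurred in MALAT1, NEAT1, KCNQ1OT1 and TUG1 and in 442 (2.75%) of 16054 lncRNA transcripts, 1 per gene. That share is not matched for length: the named transcripts have 7469 to 91667 bases, against a median of 704 over the 16054.

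NORAD is shown for its Pumilio motifs, which set it apart from the other genes by sequence. The motif was searched as TGTANATA on the transcript strand and not on the reverse strand. The 3 pairs of motifs that start within 12 bases of each other are printed with 8 bases on each side, read on the minus strand of GRCh38, with each motif in capitals. They lie at chr20:36049495-36049527, chr20:36048298-36048330 and chr20:36047662-36047694.
NORAD pair 1: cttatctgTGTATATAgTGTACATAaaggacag
NORAD pair 2: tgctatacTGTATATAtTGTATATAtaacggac
NORAD pair 3: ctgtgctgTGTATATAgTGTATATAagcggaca
NORAD-201 held 15 motifs in 5339 bases, or 2.81 per kb. Among the 342 lncRNA transcripts within 20% of its length, 36.3% held at least 1 motif and 3 held 15 or more, NORAD included. NEAT1 held 6 motifs (0.264 per kb), KCNQ1OT1 held 9 (0.0982 per kb), MIR17HG and TUG1 held 2 each, OIP5-AS1 held 1, and MALAT1 and PVT1 held 0. A motif is a run of letters and does not show that a protein was bound. In other features the 8 longest transcripts differed: MALAT1, NEAT1, KCNQ1OT1 and NORAD have 1 exon each and PVT1 has 8, and GC content ran from 37.7% in MIR17HG to 52.2% in PVT1, against a median of 46.3% over all 16054 transcripts.

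MIR17HG is shown through the mature microRNAs that its transcript carries, as listed by RefSeq for GRCh38.p14 on the plus strand of chromosome 13. The seed, bases 2 to 8, which pairs with target messenger RNAs, is in capitals.
hsa-miR-17-5p: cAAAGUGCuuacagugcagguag
hsa-miR-18a-5p: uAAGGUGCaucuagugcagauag
hsa-miR-19a-3p: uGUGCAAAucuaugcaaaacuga
hsa-miR-20a-5p: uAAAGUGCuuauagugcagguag
hsa-miR-19b-3p: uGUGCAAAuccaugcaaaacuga
hsa-miR-92a-3p: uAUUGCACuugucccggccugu
miR-17-5p and miR-20a-5p share the seed AAAGUGC, and miR-19a-3p and miR-19b-3p share GUGCAAA. miR-18a-5p has the seed AAGGUGC and miR-92a-3p has AUUGCAC. The precursor rows MIR17, MIR18A, MIR19A, MIR20A, MIR19B1 and MIR92A1 were listed at 0 in all 6 samples, so the microRNAs themselves were not measured here.

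The levels are TPM, the share of a sample that a transcript holds per unit of its length, with a fixed sum, so different genes are on one scale. The study's methods do not say whether poly(A) RNA was selected. That bears on how RNAs without such a tail, such as MALAT1 and long NEAT1, compare with the other genes. The sum over all features was 994381 for TM replicate 3 and 1000000 for each of the other 5 samples. TPM keeps no read counts, so the depth is unknown. Between 21063 and 21942 genes were above 0 in TC and between 22678 and 23216 in TM. Among markers of the line, VIM averaged 4625 TPM, KRT18 479.5 TPM and CD44 230.1 TPM. The epithelial marker EPCAM averaged 4.625 TPM, and CDH1 averaged under 0.1 TPM. Of the receptors known to be low in the line, ESR1 and PGR each averaged under 0.1 TPM. The receptor gene ERBB2, from the same list, averaged 29.7 TPM, with 22.31 to 24.07 TPM in TC and 30.82 to 40.73 TPM in TM. In bulk tissue, fewer cells of a type and less RNA per cell cannot be told apart.

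MALAT1 (ENSG00000251562, chr11:65497688-65506516, plus strand, a 1-exon lncRNA) had the widest difference of the 8 genes. It measured 7.54, 5.90 and 4.21 TPM in TC replicates 1, 2 and 3 and 23.76, 27.35 and 89.71 TPM in TM replicates 1, 2 and 3. All 3 TC samples lay below all 3 TM samples, and TM replicate 3 was far above the other TM samples. The mean was 5.88 ± 1.67 TPM in TC and 46.9 ± 37.1 TPM in TM (n = 3 each, ± SD), 7.98-fold higher in TM. On the log2(TPM + 1) scale, which all log2 differences here use, TC minus TM was -2.57 (SE 0.46). This put MALAT1 at the 0.0794 percentile of the differences of the 13861 tested genes. The size rests partly on TM replicate 3: without it the difference was -1.97, and without TM replicate 1 or 2 it was -2.91 or -2.81.

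NEAT1 (ENSG00000245532, chr11:65422774-65445540, plus strand) starts the same gene pair, 52.1 kb upstream of MALAT1 and on the same strand. Its levels were 29.97, 18.78 and 22.31 TPM in TC and 46.88, 56.74 and 55.11 TPM in TM. Again all TC samples lay below all TM samples, and here the TM samples were close together, with TM replicate 3 in the middle. The mean was 23.7 ± 5.72 TPM in TC and 52.9 ± 5.29 TPM in TM (n = 3 each, ± SD), 2.23-fold higher in TM, with a log2 difference of -1.15 (SE 0.19). A gene-level value sums the short polyadenylated form, which does not build paraspeckles, and the long form, which does, so the forms cannot be told apart here.

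KCNQ1OT1 (ENSG00000269821, chr11:2608328-2699994, minus strand) was barely measured. It stood at 0.10, 0.03 and 0.03 TPM in TC and at 0.17, 0.13 and 0.10 TPM in TM. The groups touched at 0.10 TPM, and all 6 values were under the 1 TPM needed for the fit. The mean was 0.0533 ± 0.0404 TPM in TC and 0.133 ± 0.0351 TPM in TM (n = 3 each, ± SD). Its exon covers 91667 bases and overlaps KCNQ1 on the other strand. KCNQ1, which encodes a potassium channel subunit, was itself at 0.49, 0.08 and 0.04 TPM in TC and at 0, 0 and 0.11 TPM in TM. The study aligned reads by orientation, but whether quantification used strand is not given in the sources used here.

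MIR17HG (ENSG00000215417, chr13:91347820-91354579, plus strand) was a low transcript in both zones. Its levels were 0.63, 0.68 and 0.65 TPM in TC and 0.83, 1.24 and 1.48 TPM in TM. All TC samples lay below all TM samples. The mean was 0.653 ± 0.0252 TPM in TC and 1.18 ± 0.329 TPM in TM (n = 3 each, ± SD), with a log2 difference of -0.39. For so low a gene the size depends on the pseudocount, and with 0.1 in place of 1 the difference was -0.735. MIR17HG reached 1 TPM in 2 samples only, both from TM, and was therefore not in the fit.

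TUG1 (ENSG00000253352, chr22:30969245-30979395, plus strand) shares a bidirectional promoter with a neighbouring gene. Its levels were 34.84, 26.13 and 18.09 TPM in TC and 38.34, 32.81 and 30.43 TPM in TM. The groups overlapped, since TC replicate 1 exceeded the lowest 2 TM samples. The log2 difference was -0.39 (SE 0.24). PVT1 (ENSG00000249859, chr8:127794533-128101253, plus strand) differed little between the zones. It measured 28.78, 30.34 and 30.57 TPM in TC and 27.80, 32.43 and 33.86 TPM in TM, and the groups overlapped. Its log2 difference was -0.063 (SE 0.14), a sign that turned to 0.11 under median-of-ratios scaling.

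NORAD (ENSG00000260032, chr20:36045622-36050960, minus strand) was the most abundant of the 8 genes in both zones. It measured 142.67, 97.09 and 79.77 TPM in TC and 108.93, 100.45 and 102.32 TPM in TM. The TC samples lay on both sides of the TM samples. The mean was 106.5 ± 32.5 TPM in TC and 103.9 ± 4.46 TPM in TM (n = 3 each, ± SD), with a log2 difference of -0.0059 (SE 0.20). OIP5-AS1 (ENSG00000247556, chr15:41283990-41309737, plus strand) measured 6.89, 3.98 and 10.36 TPM in TC and 8.62, 9.03 and 3.83 TPM in TM. Its groups overlapped almost wholly, and the log2 difference was -0.021 (SE 0.39). For both genes the sign of the difference changed with the scaling or with the sample left out.

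Because TPM is a share of a fixed sum, the whole distribution has to be set beside these values. The median log2 difference of all 13861 tested genes was -0.14, and 67.0% of the genes were lower in TC. Dividing the samples by median-of-ratios factors moved that median to 0.021, and quantile normalization moved it to 0.014. Under these scalings MALAT1 stood at -2.41 and -2.40 and NEAT1 at -0.97 and -0.99.

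By limma with Benjamini-Hochberg adjustment, 19 of the 13861 tested genes (0.137%) passed an adjusted p of 0.05, and 2240 genes had an unadjusted p under 0.05. Of the 6 lncRNAs in the fit, 0 were among the 19 genes. When TM replicate 3 was left out, 17 of the 13861 tested genes were called, and MALAT1 was among them. MALAT1 was not called in the main fit or under any of the other alternatives listed below. It was chosen with this contrast known, so its call is given no weight. Of the same 6 lncRNAs, 2 (MALAT1 and NEAT1) had every TC sample below every TM sample, against 18.9% of all tested genes, and 0 had every TC sample above, against 3.28%. The choice of the genes rests on this contrast, so nothing is read from these counts.

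**Figure D1:**
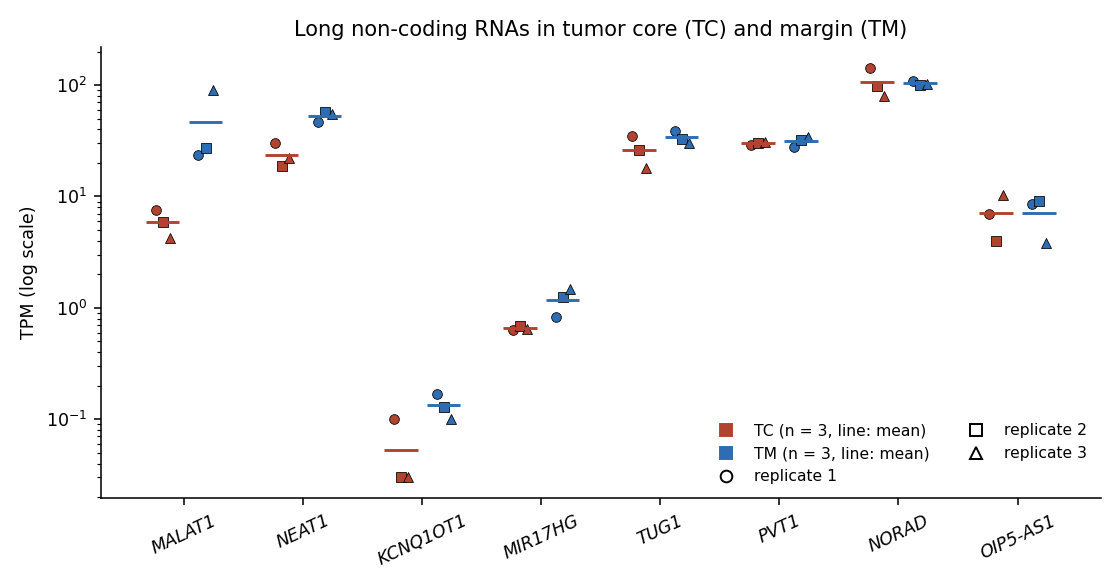
TPM on a log axis of the 8 lncRNAs in TC (red) and TM (blue), with 1 point per sample, a marker shape per replicate number and a line at the group mean. MALAT1 and NEAT1 show TC points wholly below TM points, whereas NORAD and OIP5-AS1 points are mixed.

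In TC the order of mean levels was NORAD, PVT1, TUG1, NEAT1, OIP5-AS1, MALAT1, MIR17HG and KCNQ1OT1. The neighbours PVT1 and TUG1, TUG1 and NEAT1, and OIP5-AS1 and MALAT1 overlapped in their sample ranges, and the other neighbours were apart. In TM the order was NORAD, NEAT1, MALAT1, TUG1, PVT1, OIP5-AS1, MIR17HG and KCNQ1OT1. Here NEAT1 and MALAT1, MALAT1 and TUG1, and TUG1 and PVT1 overlapped. MALAT1 stood at place 6 in TC and at place 3 in TM, and PVT1 at place 2 in TC and at place 5 in TM. Among all lncRNA genes MALAT1 ranked 202, 241 and 335 in the TC samples and 64, 58 and 19 in the TM samples. NEAT1 ranked 49, 78 and 65 in TC and 32, 31 and 31 in TM. The 8 genes together held 0.0200 ± 0.00453% of TPM in TC and 0.0278 ± 0.00350% in TM (n = 3 each, ± SD).

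The nuclear genes MALAT1, NEAT1 and KCNQ1OT1 were then set against the largely cytoplasmic NORAD and OIP5-AS1 within each sample. The mean log2(TPM + 1) of the nuclear genes minus that of the cytoplasmic genes came to -2.345, -2.088 and -2.599 in TC and -1.544, -1.378 and -0.3312 in TM. All TC samples lay below all TM samples, and TM replicate 3 was the highest. The group means were -2.34 ± 0.255 in TC and -1.08 ± 0.658 in TM (n = 3 each, ± SD), a difference of -1.26. The nuclear side carried it: the nuclear mean differed by -1.27 and the cytoplasmic mean by -0.013. Within the nuclear side MALAT1 differed by -2.57, NEAT1 by -1.15 and the barely measured KCNQ1OT1 by -0.11. With KCNQ1OT1 left out, the difference of -1.26 became -1.84. With all 3 nuclear genes but without TM replicate 3 the difference was -0.88.

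As a ratio within each sample, free of any scaling between samples, the log2 of MALAT1 to NORAD stood at -4.242, -4.041 and -4.244 in TC and -2.197, -1.877 and -0.1897 in TM. The log2 of NEAT1 to NORAD stood at -2.251, -2.370 and -1.838 in TC and -1.216, -0.824 and -0.8927 in TM. Both ratios were lower in every TC sample than in any TM sample. NORAD varied more in TC than in TM, so the ratios carry its spread too.

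**Figure D2:**
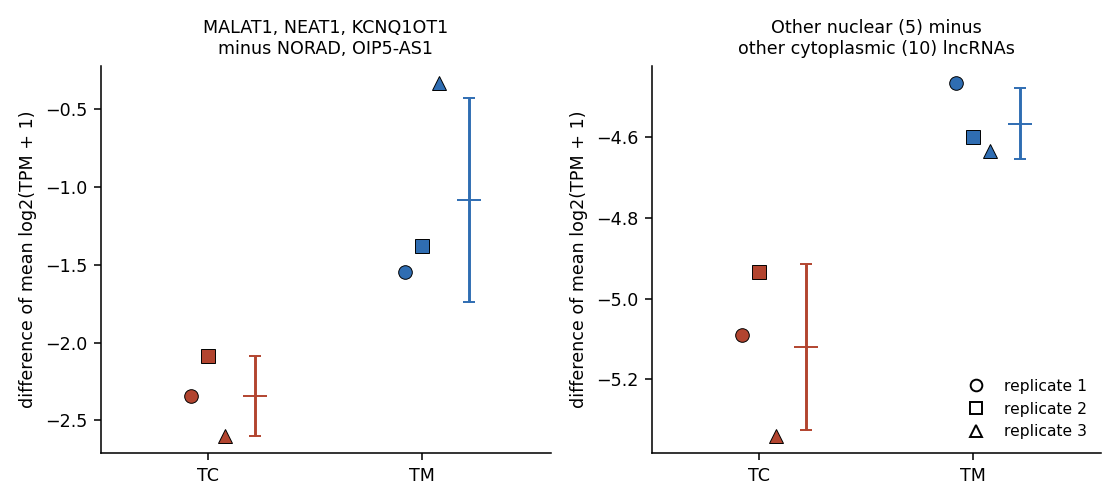
Difference in mean log2(TPM + 1) between nuclear and cytoplasmic lncRNAs in each sample, at left for the genes described here and at right for the lists of other lncRNAs, with points for replicates and, beside them, the mean with SD bars (n = 3). The TC points lie below the TM points in both panels.

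Other lncRNAs placed in the nucleus or the cytoplasm by general knowledge gave a comparison that did not use the 8 genes. The lists were nevertheless chosen with earlier results of these data known. Of 12 other nuclear lncRNAs, 5 passed the filter, and of 12 other cytoplasmic lncRNAs, 10 passed. Most of these 10 are hosts of small nucleolar RNAs, and the part of that class in the comparison was not tested. The same difference of means was -5.12 ± 0.205 in TC and -4.57 ± 0.0883 in TM (n = 3 each, ± SD), lower by 0.553 in TC, with every TC sample below every TM sample. The two-sided exact permutation test gave p = 0.1, the smallest that 3 samples against 3 allow, so the design cannot reach 0.05. Leaving out BCYRN1, whose values jumped between 0 and 25.96 TPM, gave -0.70.

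Unlike in the 8 genes, the cytoplasmic list contributed to this difference as well as the nuclear list. Of its 10 tested genes 7 were higher in TC, with a median of 0.52, and 6 had every TC sample above every TM sample, against 3.28% of all tested genes. None of the 10 passed the adjusted limma test, and 7 had an unadjusted p under 0.05. SNHG8, a small nucleolar RNA host gene, measured 260.2 ± 26.9 TPM in TC and 163.9 ± 7.65 TPM in TM (n = 3 each, ± SD), with a log2 difference of 0.66 (limma adjusted p = 0.0844, SE 0.12). SNHG5 and ZFAS1, also hosts of small nucleolar RNAs, differed by 0.57 and 0.58 (limma adjusted p = 0.0989 and 0.0999). The 3 cytoplasmic genes that were lower in TC were DANCR (-0.22), SNHG1 (-0.53) and BCYRN1 (-1.06), none past the adjusted limma test. In the nuclear list 4 of 5 tested genes were lower in TC, with a median of -0.32, and 0 passed the adjusted limma test while 2 had an unadjusted p under 0.05. FTX and JPX, both from the X-inactivation centre, went opposite ways: -0.90 for FTX (limma adjusted p = 0.207) and 0.46 for JPX (limma adjusted p = 0.259).

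All other lncRNA genes together took 1.35 ± 0.103% of TPM in TC and 1.34 ± 0.0817% in TM (n = 3 each, ± SD), a difference of 0.00905 percentage points that was within the spread (exact permutation test, two-sided, p = 0.9). Its sign turned when a single sample was left out. Of the 1205 other lncRNA genes in the fit 60.7% were lower in TC, with a median of -0.12, and 17.8% had every TC sample below every TM sample. Of them 2 were called (0.166%), both lower in TC, and both calls were lost without TC replicate 3, without TM replicate 1 or with no filter on low values, where 0 genes lower in TC were called. LINC01002 measured 9.10, 13.60 and 7.67 TPM in TC and 32.44, 35.62 and 34.94 TPM in TM, with a log2 difference of -1.70 (limma adjusted p = 0.0426, SE 0.22). HNRNPK-AS1 was listed at 0 in all 3 TC samples and at 2.47, 3.17 and 2.95 TPM in TM. It passed the filter only through its TM values, so its call is given no weight.

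Markers of host tissue and RNA composition were set beside MALAT1 and NEAT1. The summed level of 9 skeletal muscle markers was 3.6 to 7.50 TPM in TC and 167, 440.6 and 1.75 TPM in TM replicates 1, 2 and 3, with 1 of the 9 (TTN) averaging under 1 TPM. The summed level of 8 fibroblast markers was 85.63 to 242.2 TPM in TC and 501, 1024 and 110.9 TPM in TM. Of the 8, 3 (DCN, LUM and PDGFRA) averaged under 1 TPM. COL1A1 was the largest part, with a mean of 230.8 TPM, whereas FBN1 stayed between 18.81 and 27.3 TPM in all samples. TM replicate 3, where MALAT1 was highest, was the TM sample with the lowest muscle and fibroblast sums, and NEAT1 there was as high as in the other TM samples. Its muscle sum was below every TC sample and its fibroblast sum lay within the TC range, so these sums did not separate the zones. Endothelial markers summed to 3.77 to 4.99 TPM in TC and 3.93 to 7.02 TPM in TM, with 5 of 6 under 1 TPM. The macrophage sum was 95.87 to 109.5 TPM in TC and 102.3 to 109.5 TPM in TM. CD68 alone averaged 88.94 TPM of it, and 2 of 6 (CD14 and PTPRC) were under 1 TPM. The erythroid sum stayed at or under 6.93 TPM, and HBA2 was listed at 0 in all samples.

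Mitochondrially encoded genes took 7.08 ± 1.53% of TPM in TC and 10.3 ± 0.940% in TM, and ribosomal protein genes took 25.9 ± 1.23% in TC and 21.4 ± 2.19% in TM (n = 3 each, ± SD, exact permutation p = 0.1 for each). In TM replicate 3 RN7SK and RMRP, other non-coding RNAs without a poly(A) tail, were also high, and they were chosen after their values were seen. RN7SK measured 83.90, 51.63 and 89.94 TPM in TC and 38.58, 34.42 and 157.71 TPM in TM, and RMRP measured 65.22, 33.16 and 38.96 TPM in TC and 21.71, 17.31 and 74.02 TPM in TM. In TM replicates 1 and 2 both were lower than in any TC sample, whereas MALAT1 was higher than in any TC sample. RPPH1, a further such RNA, was chosen in the same way and was not high in TM replicate 3. It stood there at 23.66 TPM, against 24.00 and 34.82 TPM in TM replicates 1 and 2. The part of these in the MALAT1 and NEAT1 values was not tested.

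**Figure D3:**
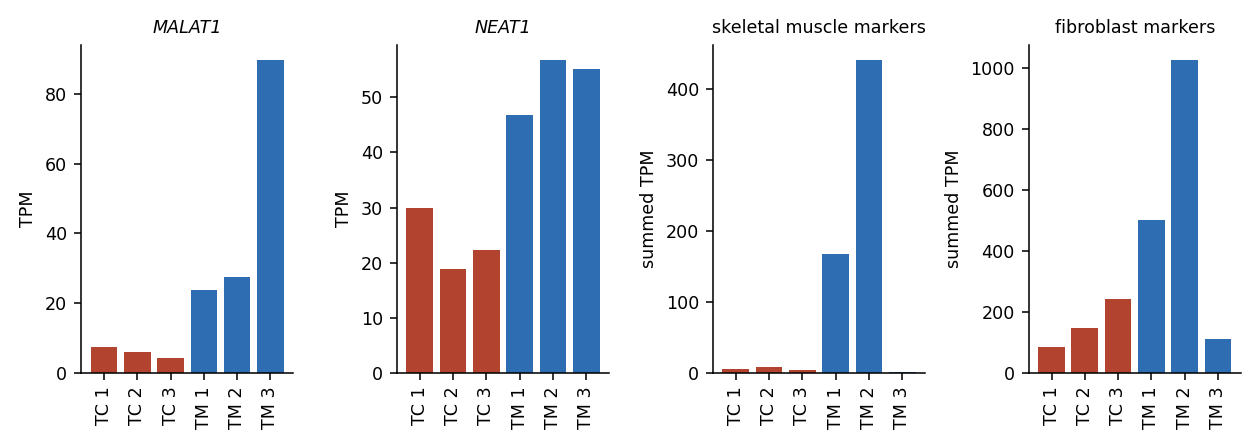
Bars from 0 of MALAT1 and NEAT1 levels in TPM and of the summed TPM of host skeletal muscle and host fibroblast markers, 1 bar per sample, TC in red and TM in blue. TM replicate 3 has the highest MALAT1 bar and the lowest muscle bar, whereas TM replicates 1 and 2 have the highest muscle and fibroblast bars.

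The proteins that work with these RNAs were examined by lists. Of 20 paraspeckle proteins, the partners of NEAT1, 19 were lower in TC, with a median log2 difference of -0.36 against -0.14 for all tested genes. The exception, RBM7, is an adaptor of nuclear RNA decay (0.41, limma adjusted p = 0.50). Of the list, 0 passed the adjusted limma test, 7 had an unadjusted p under 0.05, and 7 had TC wholly below TM. Over all tested genes the shares were 67.0% lower in TC, 0.137% called, 16.2% with an unadjusted p under 0.05 and 18.9% with TC wholly below TM. These shares are the background for each list below as well. NONO, which with SFPQ coats NEAT1, measured 221.83, 248.75 and 184.94 TPM in TC and 283.06, 286.08 and 267.55 TPM in TM. The groups did not overlap. NONO differed by -0.36 (limma adjusted p = 0.246), and HNRNPUL1 by -0.37 (limma adjusted p = 0.189). Under median-of-ratios scaling the list median was -0.18, and the median of all tested genes was 0.021.

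Of 16 nuclear speckle and splicing proteins, which share MALAT1's compartment, 14 were lower in TC, with a median of -0.35. By the adjusted limma test 0 were called, 7 had an unadjusted p under 0.05 and 8 had TC wholly below TM (18.9% of all tested genes). BCLAF1 and SF3B1, the genes that were not lower, had differences of 0.41 (SE 0.62) and 0.000275. ACIN1, a component of the exon junction complex that splicing leaves on messenger RNA, measured 89.33, 78.67 and 79.28 TPM in TC and 148.41, 149.63 and 142.37 TPM in TM. The groups did not overlap, and the log2 difference was -0.83 (limma adjusted p = 0.0529, SE 0.12), which passed once mitochondrially encoded genes were left out. SRRM1, a splicing coactivator, was at 35.4 ± 2.94 TPM in TC and 60.2 ± 4.83 TPM in TM, with a difference of -0.75 (SE 0.14, limma adjusted p = 0.0813). U2AF2, which recognises the polypyrimidine tract before an exon, differed by -0.58 (limma adjusted p = 0.0921). Under median-of-ratios scaling the list median was -0.18.

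Of 12 genes that process the MALAT1 3′ end, mainly RNase P subunits, 8 were lower and 4 higher in TC, with a median of -0.063 that turned to 0.10 under median-of-ratios scaling. By the adjusted limma test 0 were called and 1 had an unadjusted p under 0.05. That gene, ELAC2, encodes RNase Z, which cuts the small tRNA-like RNA released from the MALAT1 precursor. It measured 47.9 ± 6.51 TPM in TC and 69.5 ± 5.46 TPM in TM (n = 3 each, ± SD), a difference of -0.53 (limma adjusted p = 0.136). The RNase P subunit genes POP4 and POP1 differed by 0.43 and -0.47 (limma adjusted p = 0.395 and 0.50). RPPH1, the RNA of RNase P, measured 30.59, 31.82 and 68.65 TPM in TC and 24.00, 34.82 and 23.66 TPM in TM, and the groups overlapped.

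Of 9 protein partners of NORAD and OIP5-AS1, 8 were lower in TC, with a median of -0.14, the same as all tested genes, and of 0.036 under median-of-ratios scaling. By the adjusted limma test 0 were called and 2 had an unadjusted p under 0.05. PRPF19, a splicing factor of the complex that assembles on NORAD, measured 71.46, 83.70 and 75.58 TPM in TC and 120.02, 105.26 and 94.32 TPM in TM. The groups did not overlap, and the difference was -0.46 (SE 0.14, limma adjusted p = 0.159). PUM2, a Pumilio repressor that NORAD binds, differed by -0.056 (SE 0.35). ELAVL1, which encodes HuR, differed by -0.29 (limma adjusted p = 0.411).

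For MIR17HG, the machinery that turns a primary transcript into microRNAs was examined. Of 10 such genes 9 were lower in TC, against 67.0% of all tested genes. Their median was -0.40, or -0.23 under median-of-ratios scaling, where the median of all tested genes was 0.021. By the adjusted limma test 0 were called. An unadjusted p under 0.05 was seen for 2 (20%), near the 16.2% of all tested genes. DGCR8, which binds the primary hairpin beside the nuclease DROSHA, measured 14.00, 7.74 and 9.20 TPM in TC and 19.45, 24.69 and 25.40 TPM in TM. The TC samples lay wholly below the TM samples, and the difference was -1.12 (SE 0.24, limma adjusted p = 0.0844). XPO5, which exports precursor microRNAs from the nucleus, differed by -0.49 (limma adjusted p = 0.18), and TARBP2, a partner of DICER1, by -0.28 (limma adjusted p = 0.435).

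Of 14 other microRNA host genes 8 passed the filter, of which 5 were lower and 3 higher in TC, with a median of -0.25. By the adjusted limma test 0 were called and 3 (37.5%) had an unadjusted p under 0.05, against 16.2% of all tested genes. MIR503HG measured 2.07, 0.92 and 0.85 TPM in TC and 4.34, 4.16 and 5.87 TPM in TM, a difference of -1.37 (SE 0.28, limma adjusted p = 0.0844). Its TC values alone would not have passed the filter, so its result is given no weight. MIR222HG measured 4.29, 1.67 and 3.26 TPM in TC and 7.07, 7.52 and 6.0 TPM in TM, a difference of -1.0 (limma adjusted p = 0.148). MIR503HG and MIR222HG had all TC samples below all TM samples. They were 2 of the 8 tested hosts (25%), against 18.9% of all tested genes, so nothing is read from this count. MIR4435-2HG, by far the most abundant of these hosts, went the other way at 0.40 (limma adjusted p = 0.274).

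**Figure D4:**
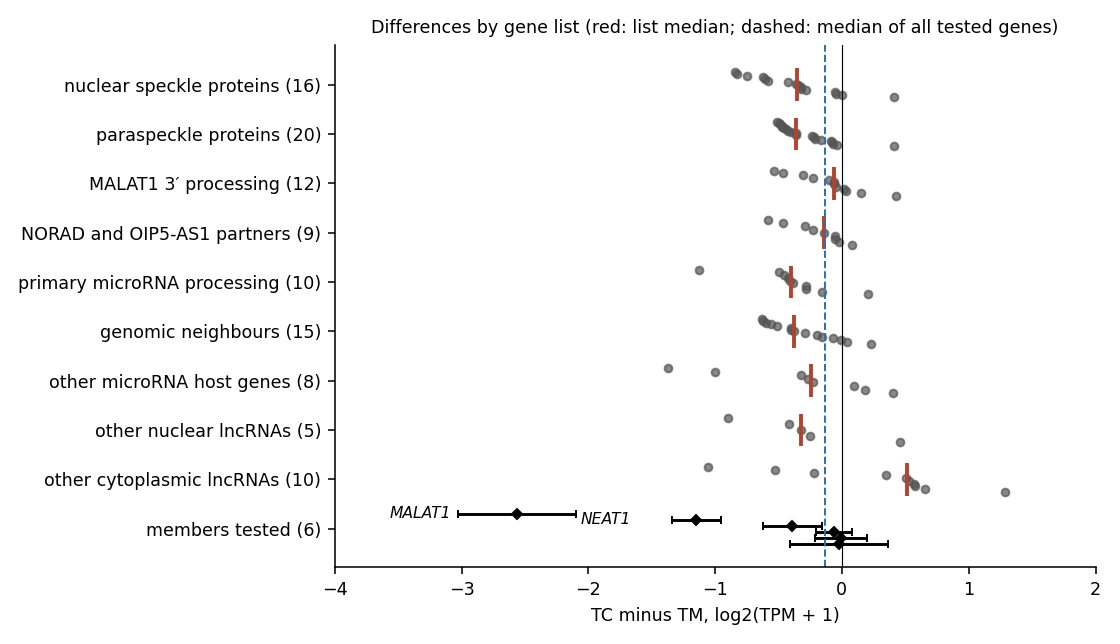
Log2(TPM + 1) difference, TC minus TM, of each tested gene in 9 gene lists (grey points, red line at the list median, number tested in brackets) and of the 6 tested lncRNAs described here (black, with SE bars); the dashed line is the median of all tested genes. The paraspeckle and speckle points lie mostly below 0, the other cytoplasmic lncRNAs mostly above 0, and MALAT1 and NEAT1 lie furthest left among the black points.

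Genes beside these lncRNAs on the chromosome were also measured. Of 18 neighbours 15 passed the filter, 13 were lower in TC, the median was -0.38, and it was -0.22 under median-of-ratios scaling. By the adjusted limma test 0 were called, 5 had an unadjusted p under 0.05, and 5 had TC wholly below TM (18.9% of all tested genes). FRMD8, 9.25 kb from NEAT1, measured 13.15, 12.27 and 11.54 TPM in TC and 17.28, 17.31 and 19.24 TPM in TM, a difference of -0.51 (limma adjusted p = 0.181). On the far side of MALAT1, LTBP3 at 32.3 kb and EHBP1L1 at 69.5 kb differed by -0.60 and -0.40 (limma adjusted p = 0.478 and 0.181). MALAT1 and NEAT1 stood at -2.57 and -1.15, but they were chosen with this contrast known, so nothing is read from their larger differences.

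MYC, the transcription factor gene 53.1 kb from PVT1, measured 98.19, 107.77 and 109.39 TPM in TC and 199.92, 140.12 and 132.68 TPM in TM, a difference of -0.56 (SE 0.17, limma adjusted p = 0.168), while PVT1 stood at -0.063. MORC2, which lies 947 bases from TUG1 on the opposite strand, differed by -0.63 (limma adjusted p = 0.279), and SMTN at 84.7 kb by -0.62 (limma adjusted p = 0.0994). OIP5, which overlaps OIP5-AS1 on the opposite strand, differed by -0.16 (limma adjusted p = 0.799), and CHP1 on its other side by 0.043. Near KCNQ1OT1, the imprinted genes CDKN1C and PHLDA2 differed by 0.23 and -0.010.

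Over the 6 samples, the pattern of MALAT1 was followed most closely by OSBPL7, L3MBTL1, ENSG00000282542, ZNF783 and LRRC14, with Pearson r on log2(TPM + 1) between 0.9962 and 0.9992. OSBPL7 measured 2.16, 1.80 and 1.53 TPM in TC and 3.65, 3.78 and 6.47 TPM in TM, so it too was highest in TM replicate 3. With so few samples in 2 groups, and with TM replicate 3 far out, such values describe these samples and carry no p-value. Among the 8 genes, r with MALAT1 was 0.932 for MIR17HG, 0.896 for NEAT1, 0.627 for KCNQ1OT1, 0.541 for PVT1, 0.531 for TUG1, 0.126 for NORAD and -0.323 for OIP5-AS1. Of all tested genes, 768 had a higher r with MALAT1 than NEAT1 had. NORAD ran most closely with TUG1 (r = 0.780). All values of r come from the same 6 libraries.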

How the data were processed

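RNA was sequenced from 3 TC and 3 TM samples of MDA-MB-231 xenografts, with groups and replicate numbers taken from the sample titles. According to the study's methods and processing notes, TruSeq libraries were made from total RNA and sequenced in pairs. SeqPrep and Sickle served for trimming, HISAT2 for alignment to hg38, StringTie for assembly and RSEM for quantification. Tool versions, the annotation release and any step to remove mouse reads are not given in the sources used here. Whether poly(A) RNA was selected is not stated in the study's methods. The authors deposited gene TPM values, with 60930 features, of which 259 loci outside the annotation were left out. Since TPM holds no counts, DESeq2, the tool of the study, could not be run.

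Gene positions and transcripts came from GENCODE 29 on GRCh38, which held 96.3% of the annotated genes. Values were transformed as log2(TPM + 1). The 13861 genes that reached 1 TPM in 3 or more samples were fitted by limma 3.58.1 in R 4.3.3 with empirical Bayes moderation and a mean-variance trend, with Benjamini-Hochberg adjustment over all of them and a threshold of 0.05 for a call. The fit was tested on simulated data. Single measures were compared by two-sided exact permutation tests. Sequences and summaries were read with Python 3.11.15, numpy 2.4.6 and pandas 2.3.3. P-values measure only the spread between these samples.

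The 8 genes and the lists were chosen with earlier results of these data known. In each list, any called gene and the 3 genes with the smallest unadjusted p were named, for neighbours any tested gene, and for likeness to MALAT1 the 5 genes with the highest r. Genes named because a count was 5 or fewer (BCLAF1, SF3B1, DANCR, SNHG1) and RBM7, PUM2, RN7SK, RMRP, RPPH1 and BCYRN1 were added after their values were seen. Some genes that this rule covers are not reported here. A muscle marker among 10 was not matched by symbol. The alternatives were median-of-ratios scaling, quantile normalization, a pseudocount of 0.1, no filter, leaving out mitochondrially encoded genes, leaving out each sample and a replicate block.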

Additional observations from a re-analysis of the deposited data

How the results depend on the processing

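The number of genes called was 19 as reported, 6 with median-of-ratios factors, 4 with quantile normalization, 7 with a pseudocount of 0.1, 1 without a filter (of 29521 genes, 3243 at an unadjusted p under 0.05), 26 without mitochondrially encoded genes, and 1 to 17 when a sample was left out (4, 16 and 1 without TC replicates 1, 2 and 3, and 1, 9 and 17 without TM replicates 1, 2 and 3). With a replicate block 1 gene was called. Same-numbered samples deviated with correlations of 0.211, -0.121 and -0.165, which cannot show whether they shared a tumor. The main fit used no block. Of partner and neighbour genes 0 were called, and 1 (ACIN1) without mitochondrially encoded genes. The share of TPM in other lncRNA genes, 0.00905 percentage points higher in TC, became -0.0415 without mitochondrially encoded genes and ran from -0.0399 (without TC replicate 3) to 0.0630 (without TC replicate 2), with -0.0154 and -0.0137 without TM replicates 1 and 3. The causes were not tested. Over 11 alternatives MALAT1 ran from -2.91 to -1.97, NEAT1 from -1.32 to -0.97, TUG1 from -0.61 to -0.15, KCNQ1OT1 from -0.63 to -0.083 and MIR17HG from -0.735 to -0.29, the lowest value of the last 2 genes with a pseudocount of 0.1. PVT1 (-0.14 to 0.11), NORAD (-0.24 to 0.18) and OIP5-AS1 (-0.36 to 0.29) changed sign. Among genes with an unadjusted p under 0.05, 88.0% were lower in TC as reported, 57.0% with median-of-ratios factors and 60.4% with quantile normalization. Both called lncRNA genes were lost with the replicate block too. Depth is unknown for all genes.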

Other observations

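Among the abundant other lncRNAs were hosts of small nucleolar RNAs, spliced transcripts whose introns carry guide RNAs for ribosomal RNA modification. SNHG29 measured 765 ± 69.1 TPM in TC and 566 ± 93.1 TPM in TM, SNHG5 753 ± 29.5 TPM in TC and 511 ± 69.3 TPM in TM, and GAS5 571 ± 78.6 TPM in TC and 461 ± 145 TPM in TM (n = 3 each, ± SD). All 3 means stood above that of NORAD, the most abundant of the 8 genes described, in both zones.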
